A study of Mus musculus with 3 samples.

Results

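Small insertions and deletions (indels) of a single G or C inside introns were compared among 3 exome libraries of MB49, a mouse bladder cancer cell line. The libraries came from the parental line and from derivatives labelled as positive or negative for the Y chromosome, with 1 library each and no other treatment named in the labels. All came from genomic DNA of cultured cells, enriched by hybridization capture and sequenced as paired-end Illumina reads after PCR amplification. The sample descriptions read MBN for the Y positive line and MBP for the Y negative line. The Y positive list held 9 indels of chromosome Y, the parental list 4 and the Y negative list 0, and the groups used here follow the genotype labels. Nothing in the labels says whether a derived line is 1 clone.

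Members were every entry on chromosomes 1 to 19 that the deposited annotation calls intronic and that inserts or deletes 1 base, G or C. Entries were matched between lists on chromosome, start, reference and alternative allele. This gave 1131 members of 23347 indels listed in any library (4.84%), and 12.5% of the 9059 intronic indels on these chromosomes. The parental library listed 670 of them, Y positive 646 and Y negative 679. With 1 library a group, each test below is between entries or reads of single libraries and does not test a condition.

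Introns are the stretches of a gene that are spliced out of its RNA, and exome capture reads them mainly where they flank an exon. An indel of 1 base in an intron leaves the protein sequence alone unless it touches a splice site. Gains and losses of a single base arise most readily in runs of the same base, where the strands can slip during copying, both in cells and in PCR, so true variants and copying errors of this kind look alike in reads. A homozygous call means that nearly all reads carry the indel, which for a cultured line includes differences of its mouse strain from the reference genome. A heterozygous call means that reads with and without it are mixed.

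Each deposited record holds the base before the change and the changed base, and one with 2 alternative alleles can hold a further base. The letters available around a member are therefore few. Those below are the members that carry the main findings, written 5′ to 3′ as deposited, with the deleted or inserted base in capitals and the coordinates taken as mouse build mm9. For a deletion the reference allele is shown and for an insertion the alternative allele. The capital marks the leftmost place of the change. In the last member listed, the coordinate is that of the g after the capital. The first differed in allele fraction between libraries, the next pair are the most deeply read homozygous deletion and insertion, the next 4 are the deepest private deletions with no listed neighbour in Y positive and then in Y negative, and the last had 2 alternative alleles in every library.
chr11:62887027 G deletion: tG
chr15:76286056 G deletion: tG
chr5:125095655 G insertion: tG
chr15:84886030 G deletion: tG
chr14:47703326 C deletion: gC
chr11:8770162 G deletion: tG
chr11:84777935 C deletion: gC
chr8:114213308 G deletion beside a 2-base deletion: tGg

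Most members were deletions. The union held 891 deletions, 506 of G and 385 of C, and 240 insertions, 124 of G and 116 of C. Read depth at the members was low, with a median of 15 reads in parental, 15 in the Y positive line and 13 in Y negative. At a depth of at least 20 reads there were 274, 252 and 272 members in the same order, and unless stated otherwise the values below are for these. Deletions were 75.9% of them in parental (95% interval 70.4 to 80.9, exact Clopper-Pearson), 77.0% in the Y positive line (71.3 to 82.0) and 77.6% in Y negative (72.1 to 82.4), so the intervals of the libraries overlapped widely. Intervals and tests on reads cover counting error only, because the reads carry no molecular identifiers and neighbouring indels can share reads.

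Among deletions, G was lost more often than C on the strand in which the records are written. G deletions were 123 of 208 in parental (59.1%, 52.1 to 65.9), 123 of 194 in the Y positive line (63.4%, 56.2 to 70.2) and 131 of 211 in Y negative (62.1%, 55.2 to 68.7). Among heterozygous deletions G was 64.8%, 69.0% and 66.2%. Among homozygous ones it was 40.7%, 43.4% and 44.9% in the same order, with intervals that all included equal shares of G and C, and the difference between genotypes was not tested. Among deletions in all 3 lists G was 52.3% (44.0 to 60.6), 58.6% (49.9 to 66.8) and 57.4% (48.6 to 65.8), also including equal shares. Among the remaining deletions it was 76.3%, 75.9% and 70.7%, not tested. Over all depths G was 55.6% of deletions in all 3 lists, 66.1% of those in 2 and 54.1% of private ones. Insertions were near balance, with G at 51.5%, 51.7% and 47.5%. In A or T deletions of introns, found by the same rule, A was 53.8%, 51.2% and 52.2%. The base before the change was most often T for G deletions: T preceded 274 of 481 G deletions written with 1 alternative allele in the union (57.0%, 52.4 to 61.4), A preceded 23.7% and C 19.3%. Before C deletions the bases were A in 41.3%, G in 31.1% and T in 27.6% of 380. In the A or T class the commonest base before was T for A deletions (39.5% of 1053) and C for T deletions (46.7% of 950). The base content of the captured introns was not measured, so no expected share is given and none of these was tested. The records place an indel at the left end of a run, so the base before it was never the same base (0 of 481 G deletions and 0 of 380 C deletions).

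Insertions were mostly homozygous and deletions mostly heterozygous, in every library. In parental, 42 of 66 insertions were homozygous (63.6%, 50.9 to 75.1) against 54 of 208 deletions (26.0%, 20.1 to 32.5). In Y positive the shares were 36 of 58 (62.1%) against 53 of 194 (27.3%), and in Y negative 38 of 61 (62.3%) against 49 of 211 (23.2%). The differences passed Fisher exact tests in all 3 libraries (adjusted p = 2.57e-07 in parental, 7.21e-06 in the Y positive line and 2.57e-07 in Y negative, Benjamini-Hochberg over 15 tests of shares). The libraries share most of these indels. Tests of shares and counts of cases over the 3 libraries, here and below, are therefore not independent of one another. Median depth was 35 reads at deletions and 38.5 at insertions in parental, 35 and 40 in Y positive, and 37 and 37 in Y negative. In 3 ranges of depth in each library, 20 to 39, 40 to 79 and 80 or more reads, the homozygous share was lower in deletions in 9 of 9 cases. At 80 or more reads the classes were closer and their intervals overlapped. Deletions against insertions were then 42.9% against 53.3% in parental, 42.3% against 46.2% in the Y positive line and 37.5% against 53.3% in Y negative, with 15, 13 and 15 insertions. Over both kinds, homozygous members were 35.0% in parental, 35.3% in the Y positive line and 32.0% in Y negative. In intronic A or T indels of 1 base, 644 of 760, 646 of 795 and 687 of 820 deletions were heterozygous. So were 112, 108 and 112 insertions, with 962, 997 and 1018 entries of both kinds. Heterozygous calls were thus also a smaller part of insertions than of deletions in that class, which was not tested.

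**Figure D1:**
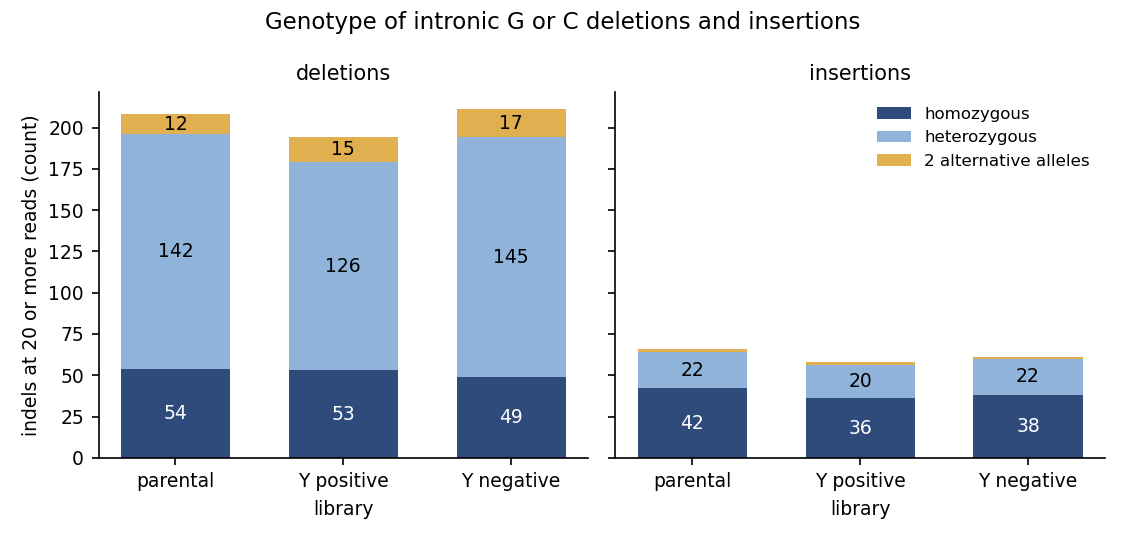
Number of intronic G or C indels (vertical axis) with at least 20 reads in each library, for deletions and for insertions, split by deposited genotype. Insertions are mostly homozygous (42, 36 and 38 of 66, 58 and 61), deletions mostly heterozygous (142, 126 and 145 of 208, 194 and 211).

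The most deeply read homozygous members were at or near all reads in every library. The G insertion at chr5:125095655, in transcript ENSMUST00000037865, was carried by 365 of 365 reads in parental, 360 of 360 in the Y positive line and 383 of 383 in Y negative. The C insertions at chr5:130203856 (189 of 189, 163 of 163 and 195 of 195 reads) and chr11:49694790 (195 of 195, 188 of 188 and 167 of 167) had no reference read in any library. Among deletions, that of G at chr15:76286056, in transcript ENSMUST00000023217, had 325 of 328, 311 of 312 and 282 of 283 reads. The G deletion at chr8:74745914 reached 151 of 151, 143 of 143 and 160 of 160 reads. The C deletion at chr3:95699358 also lacked reference reads (141 of 141, 181 of 181 and 121 of 121), but its mapping quality was 45.96, 45.01 and 42.75, below the 60 that most members had. Mapping quality is the aligner's confidence in a read's place, and it was under 60 at 24 of 274, 19 of 252 and 22 of 272 members. The deposited strand odds ratio is a score that rises when reads are split unevenly between strands. Its median was 3.03, 3.18 and 3.06 at homozygous members, against 0.82, 0.70 and 0.72 at heterozygous ones. At chr5:125095655 it was 1.70, 1.97 and 1.62.

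Genotype was the same in all 3 libraries at most shared members. Of the 329 members listed in every library, 162 were homozygous in all (49.2%, 43.7 to 54.8), 137 heterozygous in all (41.6%) and 8 had 2 alternative alleles in all, which leaves 22 whose genotype was not the same. Among the 248 shared deletions 102 were homozygous in all (41.1%, 34.9 to 47.5), and among the 81 shared insertions 60 (74.1%, 63.1 to 83.2). With at least 20 reads in every library, 6 of 167 differed in genotype, and these were named after their values were seen. The G deletion at chr8:119455142 was homozygous in the Y positive line (27 of 30 reads) and heterozygous in parental (17 of 31) and Y negative (15 of 29). By Fisher exact tests the allele fraction there of Y positive did not pass against parental (adjusted p = 0.237) or against Y negative (adjusted p = 0.133). The G deletion at chr4:102270029 was homozygous in Y positive alone (64 of 69 reads, against 66 of 76 in parental and 52 of 71 in Y negative). The G deletion at chr19:6097530 (21 of 24 reads in parental, 24 of 29 in the Y positive line and 23 of 27 in Y negative) and the C deletion at chr10:52024301 (22 of 24, 23 of 28 and 26 of 30) were homozygous in parental alone. The C deletion at chr15:100256897 was homozygous in Y negative alone (23 of 26 reads, against 34 of 41 and 34 of 40), and the G deletion at chr6:136677585 had a further allele in parental (19 of 33 reads, against 17 of 30 and 17 of 27). In these last 4 the exact intervals of the 3 allele fractions overlapped. The lowest homozygous allele fractions were 0.875, 0.886 and 0.885 and the highest heterozygous ones 0.905, 0.871 and 0.904, so the genotypes overlapped in allele fraction in parental and Y negative and not in Y positive.

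Sharing among the lists rose with depth. Over all depths 329 members were in all 3 lists (29.1%, 26.5 to 31.8). Parental and Y positive alone shared 85, parental and Y negative 69, and Y positive and Y negative 52, while 187, 180 and 229 were private to parental, Y positive and Y negative. Of members with under 5 reads, 12.1%, 11.2% and 10.9% were in all 3 lists, and 96.2%, 89.8% and 95.5% of these shallow entries were called homozygous. At 80 or more reads the shared share was 90.7% (77.9 to 97.4), 82.1% (66.5 to 92.5) and 83.0% (69.2 to 92.4). A list gives no reads for an indel it lacks, so absence is not a measured reference genotype.

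**Figure D2:**
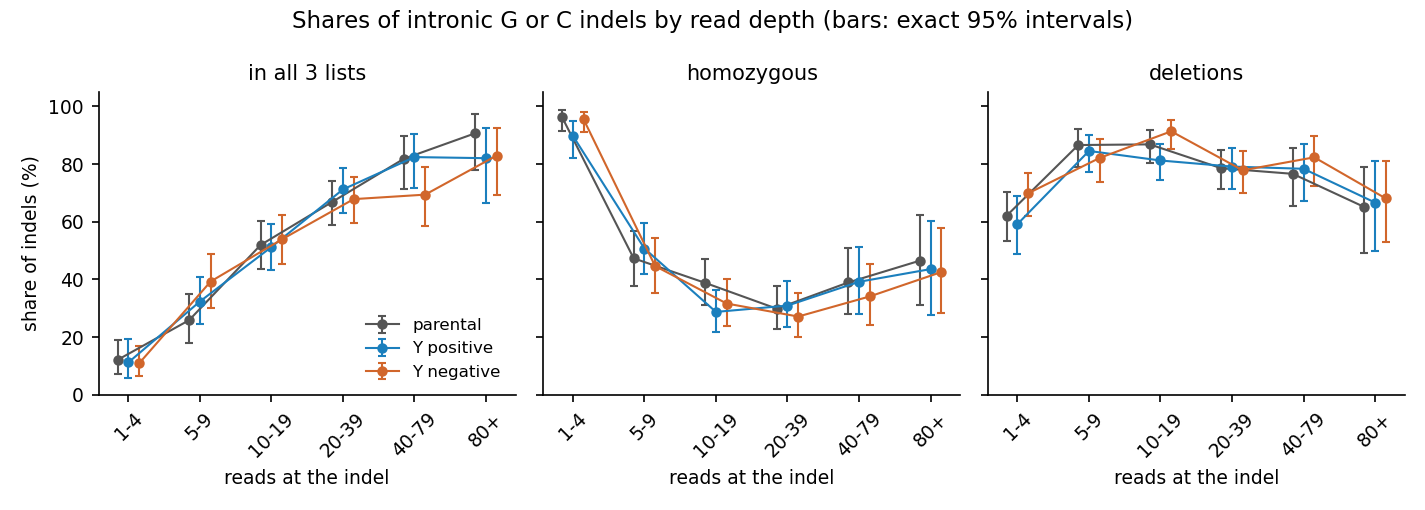
Share of members (vertical axis, %) in all 3 lists, homozygous, or deletions, by reads at the indel (horizontal axis) in each library. Points are shares and bars exact 95% intervals. The share in all 3 lists rises from 12.1%, 11.2% and 10.9% under 5 reads to 90.7%, 82.1% and 83.0% at 80 or more.

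At 20 or more reads, insertions were shared more often than deletions. In parental 56 of 66 insertions (84.8%) and 149 of 208 deletions (71.6%) were in all 3 lists, a difference of 13.2 percentage points in favour of insertions (Fisher exact test, adjusted p = 0.0430). In Y positive the shares were 52 of 58 (89.7%) and 140 of 194 (72.2%), and in Y negative 57 of 61 (93.4%) and 136 of 211 (64.5%; Fisher exact tests, adjusted p = 0.00678 and 5.83e-06). With a minimum of 10 reads the Y positive difference, deletions minus insertions, was -10.8 points and did not pass (Fisher exact test, adjusted p = 0.0926). Genotype moved with this result. Of homozygous members 95.8%, 98.9% and 98.9% were in all 3 lists, of heterozygous ones 63.4%, 65.8% and 59.3%. Within heterozygous members the shares were 62.7%, 64.3% and 55.9% of deletions against 68.2%, 75% and 81.8% of the 22, 20 and 22 insertions (in Y negative 47.4 to 64.1 against 59.7 to 94.8). Their intervals overlapped in each library, and this comparison within heterozygous members was not tested.

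Heterozygous members held by all 3 lists had a higher median allele fraction than those held by fewer. Allele fraction is the share of an entry's reads that carry the alternative allele. Heterozygous members with 1 alternative allele had a median of 0.469 in parental (95% order-statistic interval 0.429 to 0.533, 164 members), 0.504 in the Y positive line (0.422 to 0.552, 146) and 0.436 in Y negative (0.382 to 0.5, 167). Those in all 3 lists had medians of 0.545, 0.556 and 0.556. Those in 2 lists were lower, at 0.375, 0.308 and 0.350, and private ones were at 0.321 (0.262 to 0.350), 0.369 (0.286 to 0.532) and 0.297 (0.25 to 0.356). Between 2 lists and 1 the order was not the same in every library, since private members had the higher median in Y positive. An allele fraction under 0.4 was found in 17 of 21 private heterozygous members in parental, 10 of 18 in the Y positive line and 33 of 39 in Y negative, against 21 of 104, 24 of 96 and 23 of 99 of those in all 3 lists. A list holds an indel only if enough reads carried it, so allele fraction and listing are not independent measures. Deletions and insertions were close, with heterozygous medians of 0.475 and 0.446 in parental, 0.509 and 0.467 in Y positive, and 0.436 and 0.440 in Y negative. Intronic A or T indels of 1 base showed a like fall. Their heterozygous medians in 3, 2 and 1 lists were 0.5, 0.368 and 0.307 in parental. They were 0.5, 0.423 and 0.333 in Y positive and 0.492, 0.383 and 0.288 in Y negative.

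**Figure D3:**
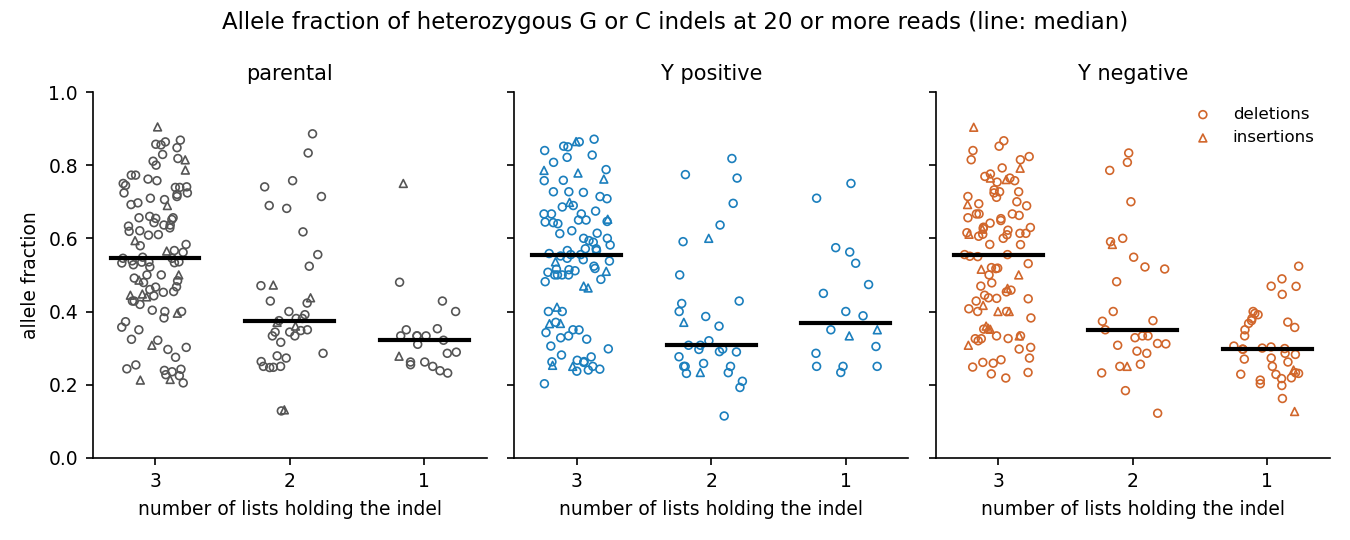
Allele fraction (vertical axis) of heterozygous members with at least 20 reads, by the number of lists that hold the indel (horizontal axis), in each library. Circles are deletions, triangles insertions and lines medians. The medians are 0.545, 0.556 and 0.556 in all 3 lists, 0.375, 0.308 and 0.350 in 2, and 0.321, 0.369 and 0.297 in 1, so in Y positive the lowest is that of 2 lists.

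The next comparison asked whether an indel present in a pair of libraries was carried by a different share of reads in each. Reference and alternative reads were compared by a Fisher exact test at every site listed in both with at least 20 reads, and p was adjusted over all indels of the pair. Between Y positive and parental, 0 of 181 members differed, beside 0.874% of all 2745 sites. Between Y negative and parental it was 1 of 183, beside 0.302% of 2651 sites. Between Y negative and Y positive it was 1 of 178, beside 0.794% of 2645 sites. The counts at members were thus near the background. At an unadjusted p under 0.05 there were 13, 7 and 10 members (7.18%, 3.83% and 5.62%), beside 6.23%, 5.47% and 6.2% of all sites. Over all tested members, homozygous ones included, the median absolute difference in allele fraction was 0.033, 0.024 and 0.024.

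The member called was the same in both comparisons with Y negative, the G deletion at chr11:62887027 in transcript ENSMUST00000035732. It was carried by 43 of 71 reads in Y negative (0.606, 0.483 to 0.720), 12 of 51 in parental (0.235, 0.128 to 0.375) and 9 of 38 in Y positive (0.237, 0.114 to 0.402). The Y negative library was high, and its interval lay above those of the other two. The difference was 0.370 from parental (Fisher exact test, adjusted p = 0.0225) and 0.369 from Y positive (Fisher exact test, adjusted p = 0.0349), and the comparisons share the Y negative reads. Mapping quality was 60 in every library.

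The other large differences did not pass the adjustment. The C insertion at chr14:57004782 was carried by 9 of 42 reads in parental, 23 of 49 in the Y positive line and 20 of 32 in Y negative, so that parental was low and Y negative high (0.411 apart, Fisher exact test, adjusted p = 0.112). The C deletion at chr14:70799515 was also low in parental, with 18 of 56 reads against 35 of 57 in the Y positive line and 29 of 46 in Y negative (Fisher exact tests, adjusted p = 0.199 and 0.306). At chr5:137869801 a C deletion was carried by 14 of 35 reads in parental, 20 of 29 in the Y positive line and 7 of 30 in Y negative. That was the widest range at any heterozygous member (0.456, Fisher exact test between the derived lines, adjusted p = 0.0671). The G deletion at chr1:137355444 was low in Y negative, with 14 of 61 reads against 33 of 64 in the Y positive line and 23 of 50 in parental. The C deletion at chr10:39732837 was low in Y negative too, with 15 of 46 reads against 36 of 59 in parental and 22 of 42 in Y positive. At chr9:30751257 a G deletion was carried by 28 of 34 reads in Y negative, 13 of 27 in the Y positive line and 21 of 32 in parental.

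At shallower sites differences of a similar size rested on fewer reads. The C deletion at chr13:24117821 had 16 of 23 reads in the Y positive line and 7 of 21 in parental and was not listed in Y negative. The C deletion at chr2:164332072 had 19 of 22, 17 of 30 and 16 of 26 reads in Y positive, parental and Y negative. The G insertion at chr13:40110901 had 22 of 28, 17 of 35 and 22 of 36 in the same order, and the G insertion at chr2:38585187 had 15 of 23, 20 of 29 and 10 of 25. None of these 4 passed the adjustment in any pair. Over the 79 members that were heterozygous in every library with at least 20 reads, the range of allele fraction over the 3 libraries had a median of 0.126.

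**Figure D4:**
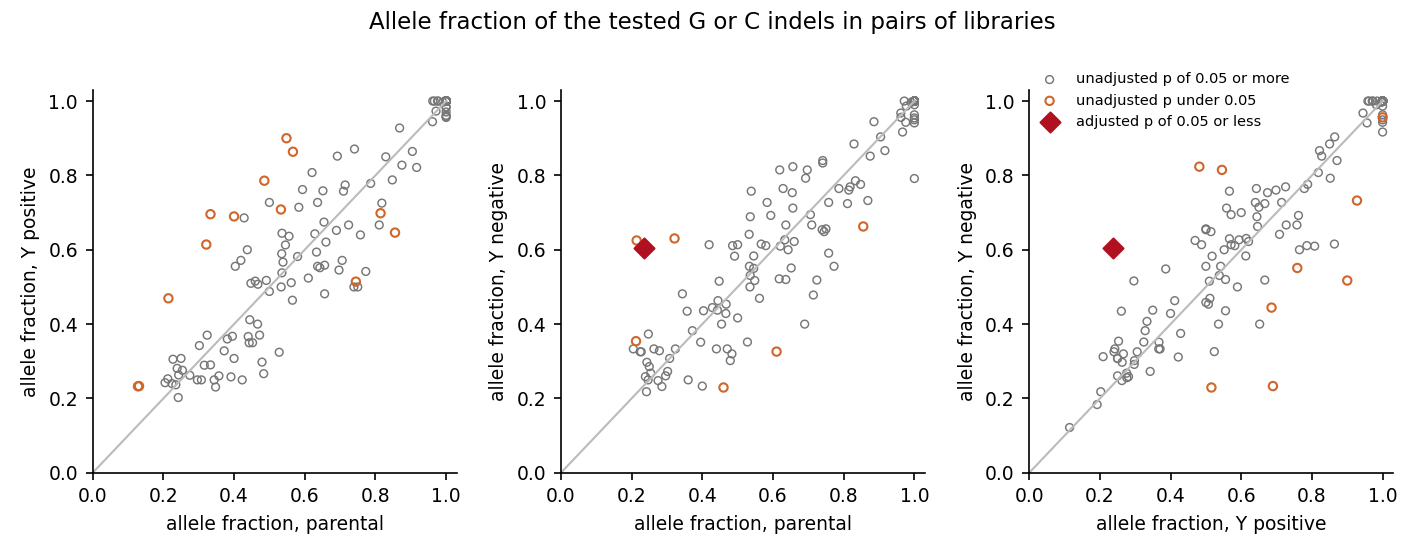
Allele fraction of each tested member in the first library of a pair (vertical axis) against the second (horizontal axis), 181, 183 and 178 members. The grey line marks equal fractions, and the filled diamond, at 0.606 in Y negative and 0.235 or 0.237 in the other library, is the member with an adjusted p of 0.05 or less.

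At 20 or more reads, parental had 23 private members (19 of them deletions), Y positive 26 (23) and Y negative 46 (44). Part of them had a counterpart written differently. An indel of any size lay within 10 bases in another list for 4, 10 and 11 of them, and for 0, 6 and 5 it was the same base change at the same leftmost place. The members homozygous among them were 1, 1 and 0. In parental the G insertion at chr19:37646142 was homozygous, with 72 of 73 reads, and a 14-base insertion was listed 9 bases away in the same library, with no indel within 10 bases in the other lists. In Y positive the G deletion at chr11:80406165 was called homozygous with 39 of 44 reads, while parental and Y negative listed a record with deletions of 1 and 2 bases at the same place.

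Among private heterozygous members with no indel listed within 10 bases, a few were deeply read, and the deepest are given here after their values were seen. In Y positive the G deletion at chr15:84886030, in transcript ENSMUST00000023069, was carried by 98 of 218 reads (0.450, 0.382 to 0.518). Next in depth there was the C deletion at chr14:47703326, in transcript ENSMUST00000022386, carried by 81 of 141 (0.574, 0.488 to 0.657). In Y negative the G deletion at chr11:8770162, in transcript ENSMUST00000154153, was carried by 61 of 130 reads (0.469, 0.381 to 0.559). Also in Y negative, the C deletion at chr11:84777935, in transcript ENSMUST00000103194, was carried by 68 of 139 (0.489, 0.404 to 0.575). In parental the deepest was the C deletion at chr19:25258149, with 19 of 82 reads (0.232, 0.146 to 0.338). Deep private deletions at an allele fraction of 0.4 or more were thus found in both derived lines. The others named here for a high allele fraction had 21 to 35 reads. Further private deletions, not named, reached 0.532 at 47 reads in the Y positive line and 0.447 at 47 reads in Y negative. In Y negative the C deletion at chr4:8755364 had 11 of 21 reads with it. In Y positive the G deletion at chr15:84044465 was carried by 22 of 31 reads (0.710, 0.520 to 0.858). In parental the G deletions at chr1:134016473 and chr14:80167557 were carried by 12 of 25 and 14 of 35 reads. Over all heterozygous private members without a neighbour the median allele fraction was 0.316 in parental (18 members), 0.350 in the Y positive line (16) and 0.297 in Y negative (35). Of these, 2, 6 and 5 reached 0.4, so most private members were below the allele fractions of those named here, apart from the one at chr19:25258149.

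Records with 2 alternative alleles accounted for 56 of the 1995 member entries and 34 members. Their second allele was a 2-base deletion in 15 of 18, 18 of 20 and 16 of 18 entries of parental, Y positive and Y negative, and the median number of reference reads was 1, 1.5 and 1.5. At the G deletion of chr8:114213308 the single deletion had 25 of 40, 23 of 38 and 23 of 51 reads in parental, Y positive and Y negative. The start of a deletion in such a record stands 1 base later than in a record with 1 allele, which splits some members when they are matched by start. With the leftmost place as the match, 1117 members remained, of which 341 were in all 3 lists, 196 in 2 and 580 in 1.

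Few members lay close together. Within 10 bases of each other there were 33 groups with 68 members. The largest was a run of 3 C insertions at chr13:38142281, chr13:38142284 and chr13:38142287 in transcript ENSMUST00000021866. All were homozygous in every library, with 24, 22 and 17 reads in parental, 26, 23 and 19 in the Y positive line and 22, 21 and 20 in Y negative and no reference read. A like run of 3 G insertions lay at chr14:119375782, chr14:119375787 and chr14:119375792, homozygous in parental and Y negative with 5 or 6 reads each and not listed in Y positive. The pair at chr1:171935537 (C deletion) and chr1:171935543 (G insertion) was homozygous in all 3 libraries, with 27, 27 and 21 reads at the deletion. Strand odds ratios were high in these groups, so their reads were unevenly split between strands. At chr13:38142281 they were 6.44, 6.59 and 4.80 in parental, Y positive and Y negative. At chr1:171935537 they were 6.67, 6.67 and 4.71, and at chr14:119375782 they were 3.61 in parental and 3.91 in Y negative.

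At 20 or more reads, the G or C indels were more often homozygous and more often shared than intronic A or T indels of 1 base. The A or T class, found by the same rule, held 2649 indels. Homozygous entries were 35.0% of G or C and 17.9% of A or T indels in parental (Fisher exact test, adjusted p = 9.72e-08), 35.3% and 19.9% in the Y positive line (2.27e-06) and 32.0% and 17.9% in Y negative (2.82e-06). All 3 lists held 74.8% against 65.6% in parental, 76.2% against 63.0% in the Y positive line and 71.0% against 61.3% in Y negative (Fisher exact tests, adjusted p = 0.00639, 0.000147 and 0.00606). Sharing and genotype were not separated in these tests. Of heterozygous entries, all 3 lists held 104 of 164 G or C against 447 of 756 A or T in parental. The counts were 96 of 146 against 421 of 754 in the Y positive line and 99 of 167 against 432 of 799 in Y negative, not tested. With a minimum of 10 reads the difference in sharing did not pass in parental (Fisher exact test, adjusted p = 0.0926) or Y negative (0.0715). Over all depths the order was the other way, and this was not tested. All 3 lists then held 29.1% of the G or C members (26.5 to 31.8) and 31.6% of the A or T indels (29.8 to 33.4). Depth differed between the classes, with medians of 35.5, 36 and 37 reads at G or C against 47, 46 and 46 at A or T. In the ranges 20 to 39, 40 to 79 and 80 or more reads, G or C indels had the higher homozygous share and the higher shared share in 9 of 9 cases each.

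The share of deletions did not pass the test between the classes, at 75.9% against 79% in parental, 77.0% against 79.7% in the Y positive line and 77.6% against 80.6% in Y negative (Fisher exact tests, adjusted p = 0.324, 0.34 and 0.328). With a minimum of 10 reads the difference changed sign in parental and Y negative. Heterozygous members shared by all lists had allele fractions of 0.545, 0.556 and 0.556 at their medians, and those of the A or T class 0.5, 0.5 and 0.492. The intervals overlapped, with 0.5 to 0.619 against 0.489 to 0.515 in parental and 0.511 to 0.6 against 0.485 to 0.513 in Y positive. In Y negative they were 0.5 to 0.615 against 0.470 to 0.508, and the difference was not tested. In the tests between libraries, 11 of 672, 4 of 658 and 12 of 649 A or T sites were called.

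**Figure D5:**
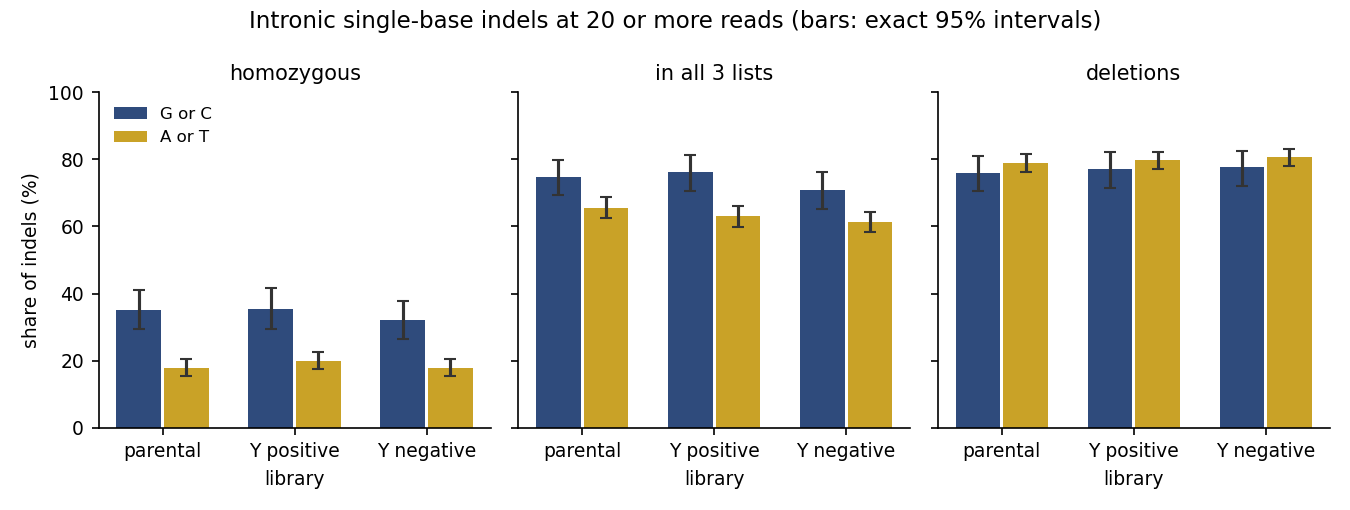
Share (vertical axis, %) of intronic single-base G or C and A or T indels with at least 20 reads that were homozygous, in all 3 lists, or deletions, in each library, with exact 95% intervals as bars. Homozygous shares are 35.0%, 35.3% and 32.0% for G or C against 17.9%, 19.9% and 17.9% for A or T, while deletion shares overlap.

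Depth at the shared members differed little between libraries. The log2 ratio of depths, after adding 0.5 reads and centring on the median of the 4143 autosomal indels in all 3 lists, had a median over the 329 members of -0.04 for Y positive over parental (95% interval -0.11 to 0.00). It was -0.05 for Y negative over parental (-0.10 to 0.03) and 0.00 for Y negative over Y positive (-0.09 to 0.05). These are depths of listed indels, so a loss of depth that removed an indel from a list was not measured.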

How the data were processed

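The deposited files list the indels of each library with their place relative to gene models. Per the file headers and values, the authors' counts of reads, total and by allele, were whole numbers. The deposited quality score was not used as a filter here, and the deposited zygosity fraction stood beside the genotype. The submitters' processing notes name BWA and Picard without versions and the builds mm9 and mm10. Positions on chromosome 7 reach 152408095 while the last GRCm38 gene there ends at 145324059, so mm9 was taken as the build. The caller of the variants and its filters are not given in the sources consulted. Of 2105 transcript identifiers at members, 0 matched the gene table, so no symbols are given.

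Analyses used Python 3.11.15, SciPy 1.17.1 and pandas 2.3.3. Shares and allele fractions carry exact 95% intervals and medians order-statistic intervals. Fisher exact tests were two-sided, at an adjusted threshold of 0.05, with Benjamini-Hochberg adjustment over all sites of a pair (1 alternative allele, at least 20 reads in both libraries) or over the 15 tests of shares. On simulated data with 100 sites moved by 0.4 in allele fraction, 77 were recovered for Y positive against parental (2745 sites), 80 for Y negative against parental (2651) and 76 for Y negative against Y positive (2645). Of 100 moved by 0.2, 9, 22 and 22 were recovered. Of the sites not moved, 4, 3 and 0 were called. Both sets were moved in the same run, at sites of intermediate allele fraction drawn from all indels and not from members alone. More sites were moved than were called in the libraries themselves, which eases the adjustment. Recovery at members can therefore be lower than these counts. The rule for named members took those called in any pair, the 5 largest differences per pair, the 3 deepest deletions and insertions homozygous everywhere, the 5 private members per library with the highest allele fraction at 20 or more reads, the 5 largest groups within 10 bases and the 5 transcripts with most members. The members and lists were chosen with earlier results of these data known. Alternatives were other depth minimums, matching rules and adjustments, the exclusion of neighbouring indels, a fraction of 0.9 as the homozygous limit, and a mapping quality of 60.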

Additional observations from a re-analysis of the deposited data

How the results depend on the processing

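Under the alternatives, 104 of 118 values were kept. Shares and medians were kept when they stayed within the interval of the value reported. Tests were kept when they held their sign and their side of the threshold. Counts of called sites, at members and over all sites, were kept when their ratio to the reported count stayed within a fixed limit. The share of members in all 3 lists moved with depth, to 66.7% in parental and 66.5% in Y positive at a minimum of 10 reads and to 81.1% in parental at 30. Matching any indel within 10 bases gave 80.3%, 81.7% and 76.8% in parental, Y positive and Y negative. At a minimum of 10 reads the difference in sharing between G or C and A or T indels was 4.99 points in parental (Fisher exact test, adjusted p = 0.0926) and 5.59 in Y negative (0.0715), and that of deletions minus insertions in Y positive was -10.8 points. At that minimum the deletion share of G or C minus A or T changed sign to 0.642 points in parental and 1.87 in Y negative, and neither sign passed the test. Matching on the leftmost place and the mapping quality of 60 were chosen after seeing the data.

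Between Y negative and Y positive, 2 members in place of 1 were called when p was adjusted over single-base indels alone, the second being the C deletion at chr5:137869801 (Fisher exact test, adjusted p = 0.0456 against 0.0671). The G deletion at chr11:62887027 stayed called in 5 of 5 alternatives of each pair, with an adjusted p of 0.0159 to 0.0308 against parental and 0.0238 to 0.0434 against Y positive (Fisher exact tests). Over all sites, Y negative against parental gave 15 calls with all non-reference reads and 5 at a mapping quality of 60, in place of 8. The causes were not tested.

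No paired analysis was possible because each group held 1 library. Leaving out a library would leave its group empty. Depth limits the listing: members under 20 reads were the majority in each library, and most changes of 0.2 in allele fraction were missed in simulated data.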

Other observations

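The homozygous share of members with at least 20 reads varied between chromosomes, and these chromosomes were named after their values were seen. On chromosome 3, 12 of 15 members were homozygous in parental, 10 of 14 in Y positive and 11 of 20 in Y negative. On chromosome 2 the counts were 11 of 17, 11 of 17 and 10 of 20, and on chromosome 18 they were 8 of 13, 7 of 12 and 8 of 12. Chromosome 9 had 1 of 17, 2 of 18 and 1 of 16, and chromosome 19 had 3 of 20, 1 of 14 and 1 of 13. In the A or T class, 36 of 78, 37 of 77 and 35 of 78 were homozygous on chromosome 3 and 31 of 57, 32 of 59 and 28 of 61 on chromosome 18. On chromosome 2 that class was lower than the G or C indels, at 14 of 54, 15 of 55 and 14 of 55. It had 5 of 51, 7 of 61 and 8 of 62 on chromosome 9 and 3 of 46, 2 of 49 and 3 of 45 on chromosome 19. The libraries share most of these indels, so they are not independent observations of a chromosome, and no test was made.

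Members were spread over many transcripts. The 393 members with at least 20 reads in some library fell into 347 sets of transcripts, of which 38 held more than 1 and the fullest held 4. One of those with 4 was ENSMUST00000061013 on chromosome 1, where 3 were insertions and all 4 were in all 3 lists. The other was ENSMUST00000105721 on chromosome 4, where 3 were deletions and 3 were in all 3 lists.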
